A study of Mus musculus with 8 samples.

Results

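The 7 genes described here steer helper T cells towards the B cell follicle or let them leave lymphoid organs: Cxcr5, Ccr7, Gpr183, S1pr1, Selplg, Klf2 and Foxo1. Each was read from the probe sets annotated with its symbol alone, and of several the one whose level averaged highest was taken as its main probe set: 1422003_at for Cxcr5, 1423466_at for Ccr7, 1437356_at for Gpr183, 1423571_at for S1pr1, 1449127_at for Selplg, 1448890_at for Klf2 and 1416981_at for Foxo1. All 7 were on the array with 11 probe sets between them, of 18193 genes with such a probe set, and all 7 were among the 11178 genes tested.

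Expression was measured in helper T cells of mice on Affymetrix arrays, with 2 arrays in each of 4 groups. Tfh cells, the helpers of the follicle, were CXCR5+ CD4 T cells that were sorted from spleens of C57BL/6 mice 7 days after these had received KLH, a foreign protein, as antigen, and were given anti-CD3 for 4 h before RNA was taken; the age of these mice was not given in the sources used here. Th1, Th2 and Th17 cells were grown from naive CD4 T cells of the spleen and lymph nodes of OT-II mice aged 6 to 8 weeks, C57BL/6 animals with a transgenic T cell receptor, cultured for 5 days with OT-II peptide and antigen-presenting cells under the condition for each type. The labels name sorting and restimulation for the Tfh cells alone and do not say how the cultured cells were handled before RNA was taken. Cell type, T cell receptor, source and handling therefore cannot be told apart between Tfh and the other groups. Nothing in the labels ties replicates to separate animals or cultures, so every p measures the spread between arrays, which may be technical.

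A naive T cell circulates between blood and lymphoid organs. CCR7 draws it into the T cell zone, S1PR1 lets it leave again along a gradient of the lipid sphingosine 1-phosphate (S1P), and the transcription factor FOXO1 keeps this state partly through KLF2, which is known to activate S1pr1. A cell becoming a Tfh cell gains CXCR5, the receptor for the follicle chemokine CXCL13, and is known to lower CCR7, GPR183 (the oxysterol receptor EBI2), PSGL-1 (the selectin ligand encoded by Selplg), S1PR1 and KLF2. T cell receptor signalling is known to lower FOXO1 activity and Klf2.

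Values are GCRMA levels on the log2 scale, in which 1 unit is a doubling, and the Tfh arrays sat higher over most of the range. The median difference of all tested genes (Tfh minus the other type) was 0.85 log2 units for Th1, 0.84 for Th2 and 0.83 for Th17, and -0.16 in each after quantile normalization over the 8 arrays. Differences are therefore given as deposited and also relative to the median gene. A gene was called when its adjusted p (limma, Benjamini-Hochberg over all tested genes) was under 0.05 and its difference was at least 1 log2 unit. A call "in all 3 scalings" also held after quantile normalization and after each array was shifted to the same median of tested genes. The Tfh pair differed by more than 1 log2 unit in 11 tested genes, against 696 to 1435 in the cultured pairs. All 11 measured T cell markers passed the level filter on both Tfh arrays, with Cd3e at 13.03 and 12.97 and Cd4 at 11.83 and 11.84.

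As deposited, all 7 genes were called higher in Tfh against the cultured mean, the mean of Th1, Th2 and Th17, where 43.7% of all tested genes were called higher. The 7 include Cxcr5, by whose protein the Tfh cells were sorted. Both Tfh arrays lay above all 6 cultured arrays for all 7, as they did for 60.5% of tested genes. The genes separated by size. Klf2, Cxcr5 and S1pr1 differed by 6.08, 5.41 and 4.89 log2 units, in the 99.62, 99.36 and 98.9 percentiles of all differences. Foxo1 differed by 2.29 and lay at the 85.56 percentile. Ccr7, Gpr183 and Selplg differed by 1.60, 1.52 and 1.36 and lay at the 71.61, 69.57 and 65.26 percentiles, so they stood 0.76, 0.68 and 0.52 above the median gene. Klf2, Cxcr5, S1pr1 and Foxo1 were called in all 3 scalings, as were 12.7% of tested genes, and the other 3 were called as deposited alone. After quantile normalization alone 15.7% of tested genes were called higher, and after the median shift 14.8%.

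**Figure D1:**
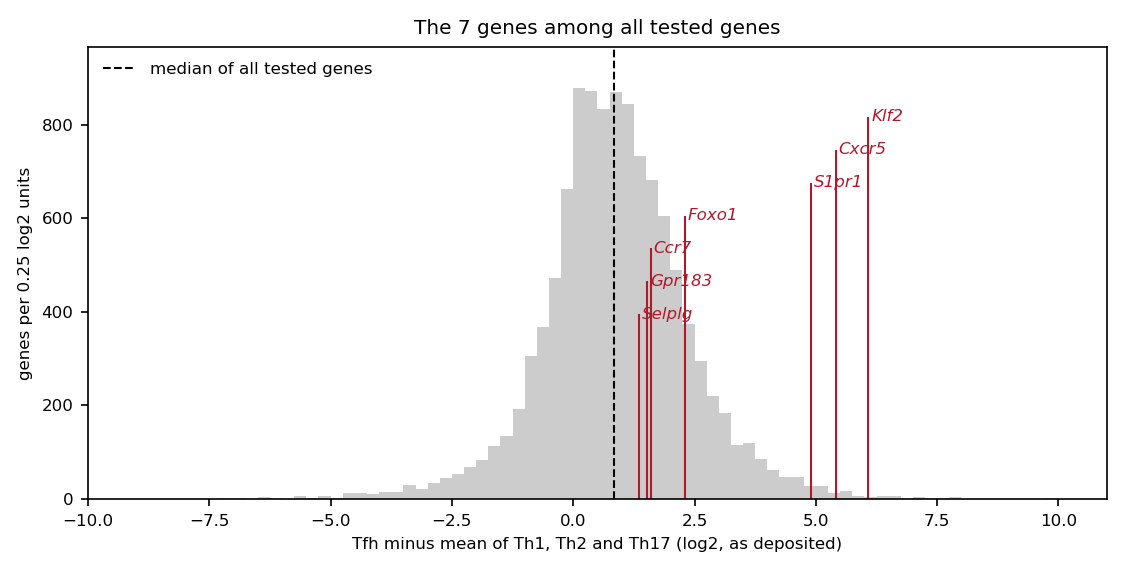
Histogram of the difference between Tfh and the mean of Th1, Th2 and Th17 (x axis, log2 as deposited) over the 11178 tested genes (y axis, genes per bin). Red lines mark the 7 genes and their height carries no value; Klf2, Cxcr5 and S1pr1 lie at 4.89 or more, while Ccr7, Gpr183 and Selplg lie near the dashed median of all genes.

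Cxcr5 was the gene by whose protein the Tfh cells were sorted, so its level there describes the sort. It stood at 11.25 and 11.20 in Tfh, 3.34 and 5.37 in Th1, 5.36 and 6.68 in Th2, and 8.12 and 6.02 in Th17. Both Tfh arrays were far above the rest, and the cultured arrays were spread over 4.78 log2 units, with Th1 replicate 1 lowest and Th17 replicate 1 highest. The differences were 6.87 against Th1, 5.21 against Th2 and 4.16 against Th17 (SE 0.96, adjusted p = 0.00154, 0.00432 and 0.0108), which is 6.03, 4.37 and 3.33 relative to the median gene. Against Th17 the call was lost without Tfh replicate 1 at an adjusted p of 0.0561, without Tfh replicate 2 (0.0535) and with both Tfh arrays averaged as 1 replicate (0.0549).

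The order of Cxcr5 over the cultured arrays was also that of Cd79a, which encodes a chain of the B cell receptor. Cd79a stood at 3.86 and 4.53 in Th1, 4.49 and 7.11 in Th2, and 7.18 and 5.40 in Th17. Both genes were thus lowest in Th1 replicate 1, and highest in Th17 replicate 1 followed by Th2 replicate 2. Other B cell markers had another order: Ms4a1, which encodes CD20, stood at 3.42 and 6.62 in Th1, 4.48 and 7.59 in Th2 and 5.87 and 3.60 in Th17. The pairing of Cxcr5 with Cd79a was chosen after the values were seen. Antigen-presenting cells were part of these cultures, and their part in the Cxcr5 levels was not tested.

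Ccr7, the receptor for the T zone chemokines CCL19 and CCL21, was high everywhere. It stood at 12.47 and 12.56 in Tfh, 11.40 and 11.48 in Th1, 9.85 and 10.49 in Th2, and 11.04 and 11.24 in Th17. The 4 groups did not overlap and ran from Tfh through Th1 and Th17 to Th2. Th1 arrays lay above those of Th17 without overlap for 16.9% of tested genes, and Th2 arrays below those of Th17 for 22.7%. The Tfh level exceeded that of Th1 by 1.07, Th2 by 2.34 and Th17 by 1.37 (SE 0.22, adjusted p = 0.00662, 0.000323 and 0.00262). Relative to the median gene these were 0.23, 1.50 and 0.55. Against Th1 the difference turned to -0.13 after the median shift (adjusted p = 0.654). The call against Th2 was the only one of the 3 to hold in all 3 scalings.

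S1pr1 encodes the receptor that a T cell needs to leave a lymphoid organ. It stood at 10.45 and 10.62 in Tfh, 5.64 and 5.05 in Th1, 3.52 and 6.26 in Th2, and 6.38 and 7.01 in Th17. The Tfh arrays were again well apart from the rest, and the lowest value came from Th2 replicate 1. The differences were 5.19, 5.64 and 3.84 against Th1, Th2 and Th17 (SE 0.86, adjusted p = 0.00307, 0.00213 and 0.00996), which is 4.35, 4.81 and 3.01 relative to the median gene. All 3 calls held in all 3 scalings. Against Th17 the call was lost without Tfh replicate 2 at an adjusted p of 0.0543, without Th17 replicate 1 (0.0504) and with the Tfh arrays averaged (0.0519).

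Gpr183, whose product follows oxysterols to the outer follicle, had 2 probe sets that differed in their calls. The main probe set stood at 11.60 and 11.54 in Tfh, 9.69 and 8.67 in Th1, 9.57 and 10.74 in Th2, and 10.30 and 11.31 in Th17. Th17 replicate 2 came within 0.3 log2 units of the Tfh arrays. It was called higher in Tfh than in Th1 (2.38, SE 0.55, adjusted p = 0.011), but not than in Th2 (1.41, adjusted p = 0.0656) or Th17 (0.76, adjusted p = 0.271). The other probe set (1457691_at) stood at 9.46 and 9.41 in Tfh, 6.61 and 5.79 in Th1, 6.94 and 8.01 in Th2, and 7.48 and 8.01 in Th17. It was called against all 3, with differences of 3.23, 1.96 and 1.69 (adjusted p = 0.00133, 0.00986 and 0.0177). For the main probe set the call against the cultured mean was lost when Tfh replicate 1 was left out (adjusted p = 0.119) or replicate 2 was (0.109), and with these arrays averaged as 1 replicate (0.114). Its call against Th1 was lost when Tfh replicate 1 (adjusted p = 0.0568), Tfh replicate 2 (0.0532) or Th1 replicate 2 (0.0523) was left out, with the Tfh arrays averaged (0.055) and after the median shift (1.18, adjusted p = 0.117).

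Selplg encodes PSGL-1, the ligand by which T cells roll on selectins and which also restrains activated T cells. It stood at 11.69 and 11.70 in Tfh, 11.25 and 10.38 in Th1, 9.20 and 9.68 in Th2, and 10.48 and 11.03 in Th17. The Th2 arrays were the lowest, and Th1 and Th17 overlapped. Only the difference against Th2 was called (2.26, SE 0.35, adjusted p = 0.00216, and 1.42 relative to the median gene), and it held in all 3 scalings. Against Th1 and Th17 the differences were 0.88 and 0.94 (adjusted p = 0.0674 and 0.0557), 0.03 and 0.11 above the median gene. Without Th1 replicate 1 the difference against Th1 was 1.31 and was called (adjusted p = 0.0191).

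**Figure D2:**
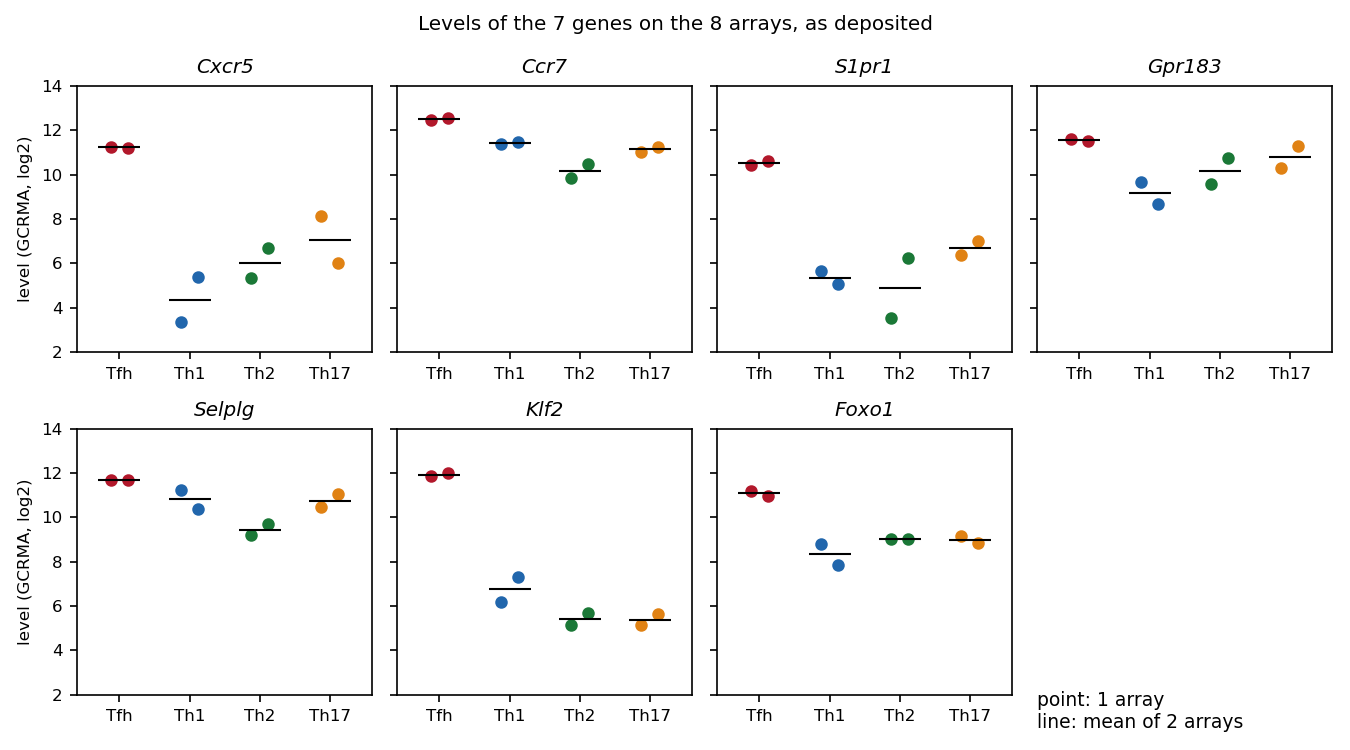
Level of each of the 7 genes (y axis, GCRMA log2 as deposited) on each array (points) by group (x axis), with the mean of 2 arrays as a line. Both Tfh points lie above all others in every panel; the gap is wide for Cxcr5, S1pr1 and Klf2 and narrow for Ccr7, Gpr183 and Selplg, where Th17 replicate 2 reaches 11.31 for Gpr183.

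Klf2, the zinc finger factor of quiescent and recirculating T cells, had the smallest adjusted p of the 7 genes. It stood at 11.87 and 11.98 in Tfh, 6.19 and 7.30 in Th1, 5.13 and 5.68 in Th2, and 5.13 and 5.64 in Th17. The Th2 and Th17 arrays overlapped, both Th1 arrays lay above them, and the Tfh arrays were more than 4 log2 units higher again. The differences were 5.18, 6.52 and 6.54 (SE 0.43, adjusted p = 0.000238, 0.000105 and 0.000112), which is 4.33, 5.68 and 5.72 relative to the median gene. On a linear scale the difference from Th17 is a ratio of 93.2 as deposited and 52.6 relative to the median gene. All 3 calls held in all 3 scalings, and over all alternatives run against Th1, Th2 and Th17 the adjusted p was at most 0.00421.

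Foxo1 encodes the forkhead factor that keeps naive T cells in circulation and is known to activate Klf2. It stood at 11.20 and 10.95 in Tfh, 8.81 and 7.85 in Th1, 9.02 and 9.04 in Th2, and 9.16 and 8.82 in Th17. The Tfh arrays were about 2 log2 units above the cultured ones, of which Th1 was lowest and Th2 and Th17 overlapped. The differences were 2.75, 2.04 and 2.09 (SE 0.33, adjusted p = 0.000862, 0.00256 and 0.00254), which is 1.90, 1.21 and 1.26 relative to the median gene. The call against Th1 held in all 3 scalings. After the median shift those against Th2 (0.83, adjusted p = 0.062) and Th17 (0.93, adjusted p = 0.0471) fell under the threshold. Probe sets 1416982_at and 1416983_s_at gave 2.83 and 3.14 against Th1, 1.93 and 2.39 against Th2, and 2.02 and 2.52 against Th17, all called. The fourth probe set, 1456529_at, stood at 1.88 to 2.24 on all arrays, under the filter level of 3.13.

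The mouse RefSeq promoter table for GRCm38.p6 holds an entry for 3 of the 7 genes, Klf2, Foxo1 and Gpr183; Cxcr5, Ccr7, S1pr1 and Selplg had none. The 250 bases upstream of the start are shown because they place the letters read by KLF and FOXO factors beside the 2 factor genes themselves, and they are printed 5′ to 3′ on the gene's strand. Capitals mark the motifs searched on both strands: CACCC, or GGGTG on the other strand, read by KLF factors, then the GC box GGGCGG, or CCGCCC on the other strand, and the forkhead core AAACA, or TGTTT on the other strand. The core also lies within the longer FOXO site GTAAACA, or TGTTTAC on the other strand. The Klf2 window is chr8:72318812-72319061 on the + strand, that of Foxo1 chr3:52268087-52268336 on the + strand, and that of Gpr183 chr14:121965194-121965443 on the - strand.
Klf2: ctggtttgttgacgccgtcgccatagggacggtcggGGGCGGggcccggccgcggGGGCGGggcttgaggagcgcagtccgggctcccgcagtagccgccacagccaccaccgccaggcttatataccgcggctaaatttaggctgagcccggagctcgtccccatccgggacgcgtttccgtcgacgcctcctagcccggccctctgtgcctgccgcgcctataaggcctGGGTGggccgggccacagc
Foxo1: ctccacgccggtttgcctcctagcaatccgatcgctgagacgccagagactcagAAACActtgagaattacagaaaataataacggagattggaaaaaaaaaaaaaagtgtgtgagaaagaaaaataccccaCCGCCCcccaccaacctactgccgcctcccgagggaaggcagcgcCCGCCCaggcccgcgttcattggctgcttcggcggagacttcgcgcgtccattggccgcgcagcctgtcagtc
Gpr183: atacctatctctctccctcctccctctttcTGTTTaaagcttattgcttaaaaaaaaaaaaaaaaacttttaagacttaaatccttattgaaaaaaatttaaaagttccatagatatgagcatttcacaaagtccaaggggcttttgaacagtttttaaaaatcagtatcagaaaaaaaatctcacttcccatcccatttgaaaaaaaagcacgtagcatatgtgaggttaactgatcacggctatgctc
The Klf2 window held 2 GC boxes, beginning 214 and 195 bases upstream, and GGGTG beginning 19 bases upstream. That of Foxo1 held 2 GC boxes, 118 and 73 bases upstream, and AAACA 196 bases upstream, and that of Gpr183 held TGTTT 220 bases upstream. The longer FOXO site was in none of these windows and in 3.17% of the 32851 windows of that length in the table. CACCC was in 52% of them, the GC box in 32.7% and the forkhead core in 46.4%, so each short motif is common. The bases G and C made up 71.2% of the Klf2 window, 56% of that of Foxo1 and 32% of that of Gpr183. These matches describe letters only and bear on no binding.

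Counted by comparison, 6 of the 7 genes were called higher in Tfh against Th1 (42.8% of tested genes were), 6 against Th2 (42.8%) and 5 against Th17 (41.8%). In all 3 scalings 4, 5 and 3 were called, against 12.4%, 13% and 11.6% of tested genes. Each of these counts includes Cxcr5, by whose protein the Tfh cells were sorted. limma called 0 of the 7 lower in these comparisons, and 0 were lower at an unadjusted p below 0.05, where 6.16%, 6.89% and 6.17% of tested genes were called lower. After the median shift 13.5% of tested genes were called higher against Th17. The 3 comparisons share the Tfh arrays. Klf2, Cxcr5 and S1pr1 were called in all 3 scalings in each. Single arrays mattered most against Th17, where 3 of the 7 genes were called without Tfh replicate 2.

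**Figure D3:**
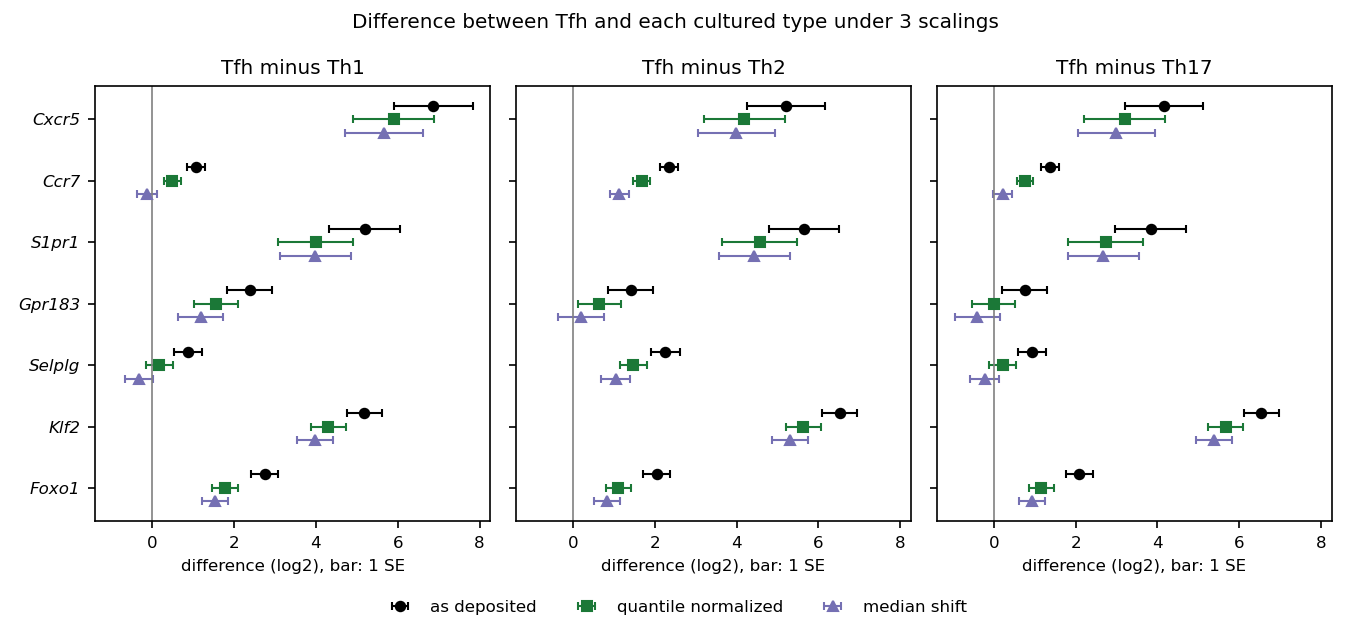
Difference between Tfh and each cultured type (x axis, log2; bars show 1 SE) for the 7 genes (y axis) as deposited, after quantile normalization and after the median shift. The values for Cxcr5, S1pr1 and Klf2 stay at 2.68 or more in every panel, while those for Ccr7, Gpr183 and Selplg lie around 0 in some panels after rescaling, as with -0.40 for Gpr183 against Th17.

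The rank of a gene within its own array is unaffected by a shift of that array. Klf2 stood at the 89.84 and 90.73 percentiles of the tested genes in Tfh and between 25.06 and 46.31 in the cultured arrays. Cxcr5 moved from between 13.48 and 55.76 in culture to 83.95 and 83.43, and S1pr1 from between 13.92 and 42.29 to 73.85 and 76.08. Foxo1 stood at 83.33 and 80.49 in Tfh and between 52.99 and 69.65 in culture. Ccr7 was at 93.51 and 94.05 in Tfh and between 78.21 and 91.51 in culture, a narrow gap. Gpr183 (87.43 and 87.01 in Tfh, between 63.45 and 90.74 in culture) and Selplg (88.27 and 88.55, between 70.40 and 90.16) overlapped with the cultured arrays by rank.

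**Figure D4:**
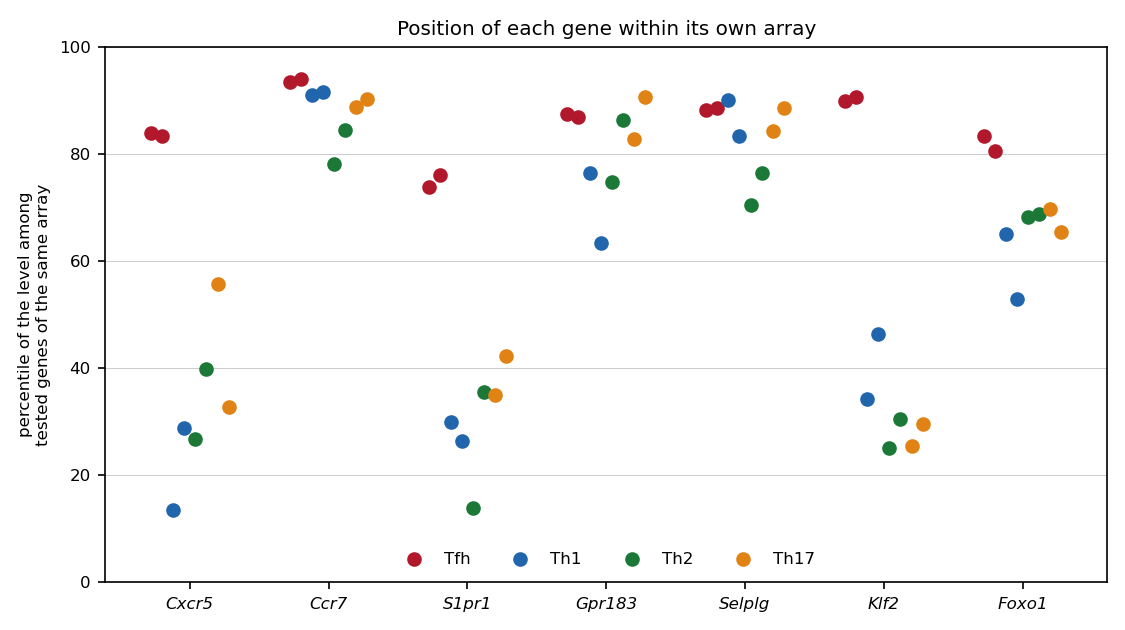
Percentile of each gene's level among the 11178 tested genes of the same array (y axis) for the 7 genes (x axis), with 1 point per array coloured by group. Klf2, S1pr1, Cxcr5 and Foxo1 rank higher in both Tfh arrays than in any cultured array, Ccr7 does so narrowly, and Gpr183 and Selplg overlap.

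The genes also changed unequally within arrays, which no shift of an array can alter. Set against the mean of the 6 cultured arrays, Cxcr5 rose by 3.89 and 3.74 log2 units more than Ccr7 in the Tfh arrays, whereas this quantity lay between -2.95 and 2.18 in the cultured arrays. S1pr1 rose by 3.26 and 3.33 more than Ccr7, where the cultured arrays, counted the other way round as Ccr7 minus S1pr1, lay between -1.05 and 1.16 and Tfh at -3.26 and -3.33. Klf2 rose by 3.61 and 3.97 more than Foxo1, with the cultured arrays between -1.09 and 2.39. Ccr7 and Selplg moved nearly alike, with a difference of 0.20 and 0.28 in Tfh and -0.43 to 0.52 in culture.

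Among the cultured types none of the 7 genes was called in limma, where 1.24% of tested genes were called between Th1 and Th2, 0.143% between Th1 and Th17 and 0.671% between Th2 and Th17. With an unadjusted p below 0.05 the counts were 3, 3 and 2, against 15.7%, 9.72% and 13.5% of tested genes. Ccr7 was 1.27 higher in Th1 than in Th2 (SE 0.22, adjusted p = 0.0674) and 0.97 lower in Th2 than in Th17 (a difference of -0.97, adjusted p = 0.144). Without Th2 replicate 2 both passed, at 1.59 (adjusted p = 0.0205) and -1.29 (0.0402). Selplg showed the same order, with 1.38 between Th1 and Th2 and -1.32 between Th2 and Th17 (SE 0.35, adjusted p = 0.144 and 0.191). Klf2 was 1.34 and 1.36 higher in Th1 than in Th2 and Th17 (adjusted p = 0.223 and 0.382), with no overlap of arrays. Both Th1 arrays lay above both Th2 arrays for 25% of tested genes, and above both Th17 arrays for 16.9%. Foxo1 had the opposite order, since both Th1 arrays, at 8.81 and 7.85, lay below all 4 Th2 and Th17 arrays. For 18.4% of tested genes both Th1 arrays lay below both Th2 arrays, and for 14.8% below both Th17 arrays. By their means Cxcr5 and Gpr183 were lowest in Th1 and highest in Th17, with differences of -2.72 and -1.63 (adjusted p = 0.427 and 0.411). S1pr1 was lower in Th2 than in Th17 by a difference of -1.81 (adjusted p = 0.444), with Th2 replicate 1 at 3.52 and replicate 2 at 6.26. These differences missed the threshold, which does not show that the types are alike.

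The list of genes for S1P signalling and egress includes S1pr1. Of 16 tested, 12 were called higher in Tfh against the cultured mean, 1 lower and 3 neither. The shares over all tested genes were 43.7% higher and 6.66% lower. In all 3 scalings 5 of the 16 were higher, against 12.7% of tested genes. The list median was 1.90, against 0.84 for all tested genes. Among the genes with the smallest adjusted p were Gnai2, the inhibitory G protein through which S1PR1 and the chemokine receptors signal (1.80, SE 0.12), and Sgpl1, the lyase that degrades S1P (3.47, SE 0.28). Gnai2 was not called after the median shift. Sphk1, a kinase that makes S1P, was the lower one (-2.15, SE 0.31) and stood at 2.77 and 2.75 in Tfh, under the filter level, so the size of its difference is uncertain. Against Th1, Th2 and Th17 singly 11, 12 and 9 of 16 were called higher, with 2, 1 and 1 lower. In these comparisons 42.8%, 42.8% and 41.8% of tested genes were called higher. Cd69, whose product is known to take S1PR1 off the cell surface, was named after its values were seen. It stood at 13.20 and 13.34 in Tfh and 10.00 to 13.08 in culture and was called higher as deposited (1.99, SE 0.58, adjusted p = 0.0228), but not after either rescaling.

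The chemokine and oxysterol genes of the follicle include Cxcr5, Ccr7 and Gpr183. Of 13 tested, 8 were called higher in Tfh against the cultured mean, 1 was lower and 4 were neither. The shares over all tested genes were 43.7% higher and 6.66% lower. In all 3 scalings 4 of the 13 were higher, against 12.7% of tested genes. The median was 1.60. Ccrl2, an atypical receptor that binds chemerin, differed by 3.50 (SE 0.09) and Arrb2, a beta-arrestin, by 2.12 (SE 0.17). Arrb2 was not called after the median shift. Hsd3b7, which encodes an enzyme that turns the GPR183 ligand over, was lower (-1.01, SE 0.13) and stood under the filter level in Tfh, at 2.31 and 2.32. Among the cultured types Hsd3b7 was also called higher in Th2 than in Th1 and Th17 (adjusted p = 0.0116 and 0.0305). It stood at 4.17 and 4.60 in Th2, 2.49 and 2.75 in Th1, and 3.07 and 2.89 in Th17. The Th1 and Th17 arrays were under the filter level, as in Tfh, so the size of these differences is uncertain. Rgs16, which shortens G protein signals, was higher in Th1 than in Th2 (1.50, SE 0.20, adjusted p = 0.0327). Against Th1, Th2 and Th17 singly 8, 7 and 7 of 13 were called higher in Tfh, with 0, 1 and 0 lower. In these comparisons 42.8%, 42.8% and 41.8% of tested genes were called higher.

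The selectins and the enzymes that decorate selectin ligands were called both ways, with 8 of 18 tested higher, 3 lower and 7 neither in Tfh against the mean of the cultured types. Their median of 0.59 lay below that of all tested genes, and 1 was higher and 3 were lower in all 3 scalings. For higher calls the background was 43.7% of tested genes, and 12.7% in all 3 scalings. For lower calls the background was 6.66% of tested genes, and 6.63% in all 3 scalings. Spn, which encodes the sialomucin CD43, differed by 1.85 (SE 0.10), Glg1, the E-selectin ligand ESL-1, by 1.93 (SE 0.18) and B4galt1, a galactosyltransferase, by 1.53 (SE 0.14). None of these 3 was called after the median shift, and the gene higher in all 3 scalings was Gcnt1. Selp, the gene for P-selectin, was lower (-4.70, SE 0.36), at 2.13 and 2.11 in Tfh, under the filter level of 3.13, and 5.95 to 7.50 in culture. Tpst1, which sulfates tyrosines of PSGL-1, was lower by 1.49 (a difference of -1.49, SE 0.30), and Fut4, a fucosyltransferase, differed by -2.74 (SE 0.69), with Tfh at 2.68 and 2.65. For Selp and Fut4, under the filter level in Tfh, the size of the difference is uncertain.

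Of the KLF and FOXO factor genes, 9 of 13 tested were higher in Tfh against the cultured mean, 1 was lower and 3 were neither. The median was 1.36. The shares over all tested genes were 43.7% higher and 6.66% lower. In all 3 scalings 4 of the 13 were higher, against 12.7% of tested genes. After Klf2 the smallest adjusted p was that of Foxo4, a relative of Foxo1 (3.37, SE 0.26). Klf9 was lower (-1.75, SE 0.15). Of 15 genes reported as targets of FOXO1 or KLF2 in T cells, 9 were higher, against 43.7% of all tested genes. In limma 0 of the 15 were lower (with 0 below an unadjusted p of 0.05 as well) and 6 were neither. The median was 2.26, and 7 were higher in all 3 scalings, against 12.7% of tested genes. Klf2, S1pr1 and Ccr7 are on this list too. Cdkn1b, the cell cycle inhibitor p27, differed by 4.16 (SE 0.30) and Sesn1, a stress-response gene, by 2.26 (SE 0.16). The PI3K and AKT pathway drives FOXO1 out of the nucleus. The list of its genes holds some that drive it and some that restrain it, so its counts give no direction of activity. Of 18 tested, 11 were higher (43.7% of all tested genes were), 0 lower in limma (with 0 below an unadjusted p of 0.05 as well) and 7 neither. The median was 1.63. In all 3 scalings 2 of 18 were higher, close to the 12.7% of tested genes. Among the genes called higher as deposited were Ikbkb (1.56, SE 0.11), Phlpp1, an AKT phosphatase (4.60, SE 0.37), and Tsc1 (1.97, SE 0.16). Ikbkb and Tsc1 were not called after the median shift.

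**Figure D5:**
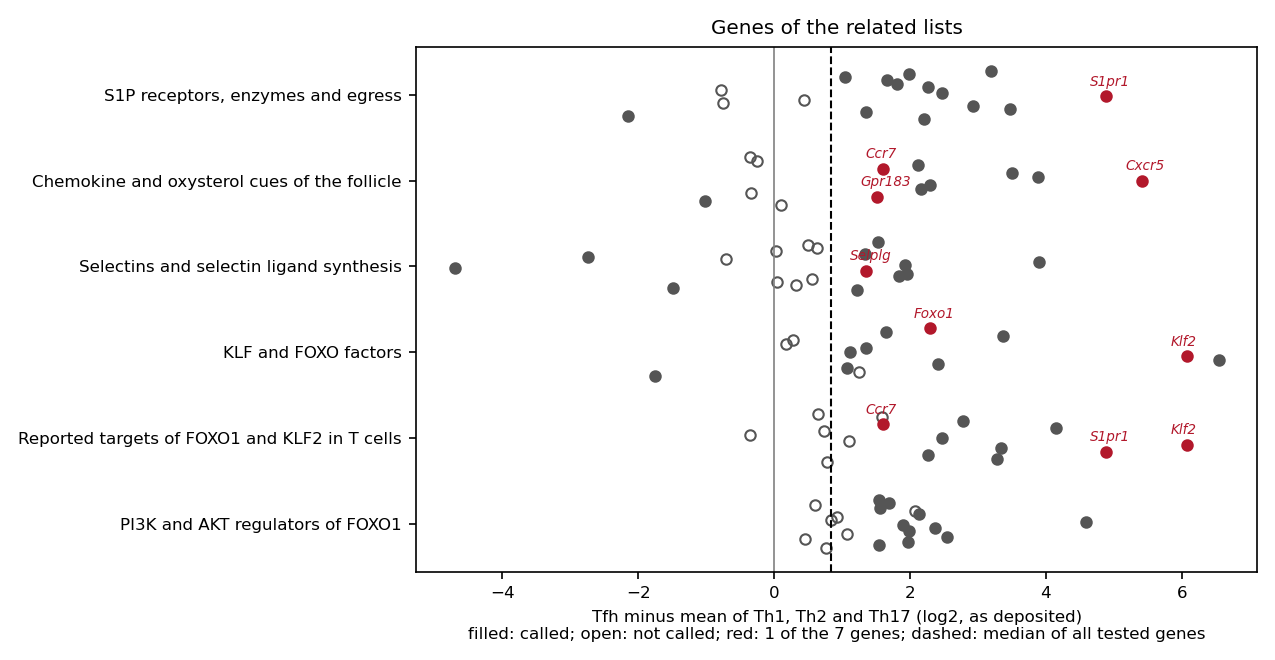
Difference between Tfh and the mean of Th1, Th2 and Th17 (x axis, log2 as deposited) for the tested genes of 6 related lists (y axis); red points are among the 7 genes, filled points were called, open points were not, and the dashed line is the median of all tested genes. S1pr1, Cxcr5 and Klf2 lie near the right of their lists, and Selp lies at the left at -4.70.

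Early genes of T cell receptor signalling were high in all groups, except for Fosb in culture. Of 20 tested, 9 were higher in Tfh against the cultured mean, near the 43.7% of all tested genes, 1 was lower and 10 were neither. In all 3 scalings 1 of 20 was higher, against 12.7% of tested genes, and the median was 1.44. Fosb, Ier2 and Egr1, transcription regulators induced within the first hours, differed by 4.24 (SE 0.12), 1.45 (SE 0.14) and 1.48 (SE 0.17). Il2ra, a chain of the IL-2 receptor, differed by -2.36 (SE 0.42). Fosb stood at 6.22 and 6.56 in Tfh and at 2.09 to 2.40 in culture. Its cultured arrays were all under the filter level, so the size of its difference is uncertain. Ier2 and Egr1 were not called after the median shift. Other genes of the list, named after their values were seen, were high in culture as well as in Tfh. Il2, the gene for the T cell growth factor IL-2, stood at 11.36 and 11.14 in Tfh, below all 6 cultured arrays at 11.74 to 13.90 (-1.75, SE 0.67, adjusted p = 0.0572). Both Tfh arrays lay below all 6 cultured arrays for 13.8% of tested genes. Egr2, another early transcription factor, stood at 13.58 and 13.43 in Tfh and 11.80 to 13.28 in culture, and Nr4a3, an early nuclear receptor, at 13.51 and 13.43 in Tfh and 9.45 to 13.69 in culture, and neither was called. The median level of the 20 genes was 12.42 and 12.35 in Tfh and 10.58 to 11.87 in the cultured arrays. Their part in the levels of Klf2 and S1pr1 was not tested.

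T cell markers moved with the Tfh arrays as well. Of 11 tested, 7 were called higher in Tfh against the cultured mean, where 43.7% of all tested genes were. In limma 0 of the 11 were lower (with 0 below an unadjusted p of 0.05 as well) and 4 were neither. The median was 1.24, and 2 were higher in all 3 scalings, against 12.7% of tested genes. These 2 were Cd3e, at 9.71 to 10.77 in culture (2.67, SE 0.30), and Cd4, at 8.61 to 9.93 in culture (2.52, SE 0.21), both larger differences than that of Foxo1 at 2.29. Their part in the levels of the 7 genes was not tested.

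Many markers of other cells moved with the Tfh arrays too, in cells that had been sorted as CD4+CXCR5+. Of 12 neutrophil markers 10 were called higher in Tfh against the cultured mean, 0 lower in limma and 2 neither. The share called higher over all tested genes was 43.7%. S100a8 stood at 14.93 and 14.85 in Tfh, S100a9 at 14.38 and 14.36 and Ngp at 13.13 and 13.02. The 2 not called were Cxcr2 and Mmp8. Cxcr2 stood at 4.03 and 4.01 in Tfh and higher in culture, at 4.15 to 5.36. Mmp8 stood at 3.86 and 4.17 in Tfh and 2.10 to 7.51 in culture. Summed on the linear scale and given as log2, this list stood at 16.09 to 16.15 in Tfh, 6.45 to 6.57 in Th1, 6.44 to 11.91 in Th2 and 6.83 to 8.96 in Th17. Of 11 measured B cell markers 8 were tested and 5 of these were called higher, against the same 43.7% of all tested genes. On both Tfh arrays 8 passed the filter level, while Pax5, Blk and Fcrla were under it. The highest were Fcer2a at 8.61 and 8.59, Cd79b at 8.30 and 8.38 and Cd79a at 8.02 and 7.93. Ms4a1 stood at 7.90 and 7.97. In culture the highest levels were 7.59 for Fcer2a and Ms4a1, 7.18 for Cd79a and 8.95 for Cd79b, the last above Tfh. Ebf1 stood at 3.65 and 3.62 in Tfh and higher in culture, at 3.86 to 6.75. Blnk stood at 6.25 and 6.26 in Tfh and 2.35 to 8.42 in culture. The summed level was 10.51 to 10.52 in Tfh, 6.75 to 8.06 in Th1, 8.90 to 10.50 in Th2 and 8.04 to 9.84 in Th17. B cells are known to express Cxcr5, Ccr7, Gpr183, S1pr1, Klf2 and Foxo1, and neutrophils Selplg. In these bulk samples fewer cells of a type and less RNA per cell cannot be told apart, and the part of other cells in the levels of the 7 genes was not tested.

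Of 13 measured myeloid and dendritic cell markers 2 were higher, 1 was lower and 5 were neither, the rest not passing the filter. The shares over all tested genes were 43.7% higher and 6.66% lower. Lyz2 stood at 11.42 and 11.31 in Tfh and 1.86 to 10.26 in culture. Csf1r, at 7.47 and 7.65 in Tfh, and Itgam, at 4.87 and 4.80, lay below Th2 replicate 1, at 8.81 and 5.73. Cd14, at 7.41 and 7.67 in Tfh, lay below Th17 replicate 1 at 7.89. Cd68, at 7.20 and 7.24 in Tfh, lay below Th2 replicate 1 at 8.26. Fcgr1, Xcr1, Siglech and Cd209a were under the filter level on all 8 arrays. The summed level was 11.65 to 11.71 in Tfh, 6.33 to 7.14 in Th1, 8.38 to 11.22 in Th2 and 8.32 to 10.24 in Th17. CD8 and NK cell markers were not higher as a group, with 1 higher, 2 lower and 4 neither of 7 tested, with Gzma at 7.60, Eomes at 7.24 and Klrd1 at 7.19 as Tfh means, Cd8a at 4.79 and 4.90 and Ncr1 under the filter level on all 8 arrays. Their summed level was 9.28 to 9.40 in Tfh, 11.84 to 14.47 in Th1, 14.53 to 15.40 in Th2 and 10.44 to 10.96 in Th17.

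For each of the 7 genes the tested genes of most similar pattern were found by Pearson's r over the 8 arrays as deposited. The 8 points share the step between Tfh and culture, so r is a description. Klf2 was followed by Gpbp1 (0.997), Unk (0.997) and Per1 (0.996), and after quantile normalization r was 0.991, 0.385 and 0.997. Cxcr5 was followed by Ywhab (0.992), Vdr (0.983) and Swap70 (0.983), with 0.989, 0.959 and 0.778 after normalization. S1pr1 was followed by Vps41 (0.988), Cnp (0.986) and Vrk3 (0.986), with 0.882, 0.984 and 0.970 after it. Foxo1 was followed by Aldh3a2 (0.995), Ppp2ca (0.994) and Natd1 (0.994), with 0.736, 0.927 and 0.972 after normalization. Ccr7 was followed by Luc7l3 (0.991), Tmem65 (0.990) and Hmox2 (0.987), with 0.437, 0.982 and 0.337 after quantile normalization. Gpr183 had the lowest values, with Aebp2 (0.966), Phxr4 (0.959) and Fau (0.959), with 0.974, 0.711 and 0.948 after normalization. Selplg was followed by Pitpnc1 (0.988), Nin (0.981) and Sestd1 (0.977), with 0.985, 0.716 and 0.738 after it.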

How the data were processed

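Total RNA was labelled with biotin by in vitro transcription and hybridised to Affymetrix arrays. Per the submitters' processing notes the authors summarised the arrays with GCRMA, and the deposited values are log2 levels; the version and which arrays were normalised together are not given in the sources used here. Precision is limited by the number of arrays. The values were used as deposited.

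Of 45101 probe sets 34945 carried 1 gene symbol in the platform annotation, 932 several and 9160 none, and 64 were controls. The probe set with the highest mean was kept for each of 18193 genes, and 11178 genes were tested, those exceeding 3.13, the 50th percentile over the table, in at least 2 arrays. limma 3.58.1 (R 4.3.3) fitted 1 coefficient per group over the 8 arrays, with a trend in eBayes (4 residual and 1.78 prior degrees of freedom), two-sided; SE is that of this fit. The fit was tested on simulated data, where it missed most changes of 1 log2 unit, so a gene not called may still differ. The percentile of a difference is its rank among tested genes.

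The 7 genes and the lists were chosen with earlier results of these data known. From each list the 3 called genes with the smallest adjusted p each way in Tfh against the mean of the cultured types were named, with up to 3 called per cultured pair, defining markers, and, of other cell types, the 3 markers highest in Tfh; 1 gene that this rule names is not reported here. Alternatives covered scaling, filter, probe set, variance model, arrays in the fit, replicate block, threshold, averaging of the Tfh arrays and leaving out each array. Figures were drawn with matplotlib 3.10.9 (Python 3.11.15). The promoter letters are from RefSeq.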

Additional observations from a re-analysis of the deposited data

How the results depend on the processing

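Of the 7 genes, 4 instead of 7 were called higher in Tfh against the cultured mean after quantile normalization, 4 after the median shift and 4 at a threshold of 2 log2 units. Against Th17 3 instead of 5 were called after the median shift and 3 with the Tfh arrays averaged as 1 replicate, and leaving out 1 array gave 3 to 5. Leaving out 1 array gave 0 to 1 genes higher in Th1 than in Th2, and 0 to 1 lower in Th2 than in Th17. After the median shift 4 differences changed sign: Ccr7 (-0.13) and Selplg (-0.33) against Th1, and Gpr183 (-0.40) and Selplg (-0.22) against Th17. Gpr183 against Th17 was -0.00078 after quantile normalization. None of these 5 was called after the change of scale. The median shift takes the same amount from every gene in a comparison. It left the median difference of all tested genes at -0.36 against Th1 and -0.33 against Th17. The cause of the offset between the Tfh and cultured arrays was not tested. Of the other values of single genes 703 kept their direction and their side of the threshold, 30 lost and 8 gained the call. Over all tested genes 4887 were called higher and 745 lower in Tfh against the cultured mean, against 1756 and 2463 after quantile normalization, 1653 and 3233 after the median shift, 2146 and 325 at a threshold of 2 log2 units and 6606 and 1399 without a minimum fold. Calls between Th1 and Th2, Th1 and Th17, and Th2 and Th17 numbered 139, 16 and 75, against 26, 3 and 22 with the Tfh arrays averaged and 0, 0 and 5 on the 4 arrays compared; leaving out 1 array gave 26 to 238, 3 to 112 and 22 to 161. Averaging or omitting arrays leaves fewer degrees of freedom. The labels number the replicates. The deviations of same-numbered arrays from the mean of their own group were correlated between groups over tested genes. These correlations were -0.0018 to 0.0424 in 4 group pairs, 0.255 for Th1 with Th17 and 0.268 for Th2 with Th17. The numbers were not taken as pairs over the 4 groups; whether some cultured arrays share a batch was not tested. With the replicate block 7, 6, 6 and 5 of the 7 genes were called higher in Tfh against the cultured mean, Th1, Th2 and Th17, as without it, and 5 instead of 16 genes were called between Th1 and Th17. For the mean of the cultured types no fit on only the compared arrays differs from the one used.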

Other observations

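Several genes next to the 7 in the same pathways also differed between Tfh and culture; they were picked out after their values were seen. Klf3, a repressor of the KLF family, stood at 11.85 and 12.00 in Tfh, 2.37 and 8.15 in Th1, 5.75 and 5.45 in Th2, and 5.17 and 5.39 in Th17, a difference of 6.55 from the cultured mean (SE 1.40, limma adjusted p = 0.00693). Its Th1 arrays were 5.78 log2 units apart, wider than any group of the 7 genes. Cxcr4, the receptor that holds T cells near CXCL12, stood at 13.09 and 13.08 in Tfh and 6.95 to 10.29 in culture (3.88, SE 0.80, adjusted p = 0.00597). S1pr4, another S1P receptor of lymphocytes, stood at 10.54 and 10.57 in Tfh and 6.63 to 8.25 in culture (2.93, SE 0.28, adjusted p = 0.000269). Gcnt1, the branching enzyme of selectin ligands on PSGL-1, stood at 9.18 and 9.24 in Tfh and 3.94 to 7.36 in culture (3.90, SE 0.86, adjusted p = 0.00794). All 4 were called in all 3 scalings. Rgs1, which damps chemokine receptor signals, was lower in both Tfh arrays, at 12.44 and 12.26, than in any cultured array (12.73 to 13.61), as were 13.8% of tested genes. It missed the call as deposited (-0.78, limma adjusted p = 0.0163) and was called lower after both rescalings.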
